A study of Mus musculus with 6 samples.

Results

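The core spliceosome genes described here are the 54 Ensembl genes of the deposited expression matrix whose symbols begin with Snrp, Snrnp, Lsm and a digit, Sf3a, Sf3b or Prpf. They were chosen by name from 53700 Ensembl genes among 60193 rows. The rule uses no expression value, although earlier results of these data were known when it was set. The name pattern matched 3 further rows that were left out, Lsm14b and the pseudogenes Snrp1c-ps1 and Snrp1c-ps2, both of which were listed at 0 in all 6 samples. Of the 54 members, 49 reached a mean of 1 FPKM (fragments scaled to transcript length and library depth) over the 6 samples and were tested. The 5 others were Prpf19, Prpf4, Prpf40b, Snrnp35 and Snrpert, and the last of these is annotated as a processed pseudogene.

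The samples were pools of metaphase II (MII) oocytes from female ICR mice of 42 to 45 weeks, an age near the end of reproductive life in this outbred stock. Each of 3 IVM and 3 IVO pools held 20 oocytes from 3 mice, and all donors had received pregnant mare's serum gonadotropin. The IVM oocytes were stripped of cumulus cells at the germinal vesicle stage and matured in M16 medium for 12 h. The IVO oocytes matured in the ovary after a further injection of human chorionic gonadotropin (hCG) and were taken from the oviduct 14 h later, so the site of maturation, the hormone and the time before collection differed together and cannot be told apart.

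The spliceosome removes introns from pre-mRNA. It is built from small nuclear ribonucleoproteins (snRNPs), each a small nuclear RNA with its own proteins. U1 recognises the 5′ splice site and U2 the branch point, after which the U4/U6.U5 tri-snRNP joins and is rearranged into the catalytic machine, while U11 and U12 do the work of U1 and U2 on a rare class of introns. Rings of Sm proteins sit on U1, U2, U4 and U5, and a ring of related LSm proteins sits on U6. MII oocytes are transcriptionally silent and rely on transcripts stored during growth. What set the mRNA levels measured here was not tested.

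All 10 oocyte markers examined were expressed, with summed levels of 11233 to 13814 FPKM in the IVM pools and 8177 to 9146 FPKM in the IVO pools. Dppa3 was the highest of them, with means of 6901 FPKM in IVM and 6016 FPKM in IVO. Zp1, Zp2, Zp3 and Nlrp5 were lower DEGs in IVO, with log2FC (log2 fold change, IVO minus IVM) of -2.43, -3.69, -3.13 and -1.99. The other oocyte markers were not DEGs, and 17.9% of all tested genes were lower DEGs. The summed level of 16 cumulus and granulosa markers was 31.0 to 61.8 FPKM in IVM and 34.5 to 57.6 FPKM in IVO. Amh and Areg were at 0 in every pool, and only Amhr2, Fshr and Cyp19a1 averaged 1 FPKM or more. The cumulus and granulosa markers did not move together. Means in IVM and IVO were 14.2 and 9.68 FPKM for Amhr2, and 0.57 and 0.21 FPKM for Inha. They were 0.057 and 0.43 FPKM for Tnfaip6, 0.02 and 0.11 FPKM for Ptx3, and 0.093 and 0.30 FPKM for Has2. The 4 oviduct markers summed to 2.76 to 3.01 FPKM in IVM and 3.26 to 5.58 FPKM in IVO, with Pax8 at 0 throughout, and the 5 blood markers to at most 1.04 FPKM in IVM and 5.82 FPKM in IVO. Low FPKM values fall on steps set by single fragments, which put the depth at 16350000 to 19450000 fragments in IVM and 17950000 to 18100000 in IVO. The inferred mean fragment was 206 to 214 bases long in IVM and 250 to 262 bases in IVO. FPKM is a share of each pool's transcripts, so a smaller share and less RNA per oocyte cannot be told apart, and the median log2 fold change (log2FC, IVO minus IVM) of all 18818 tested genes was -0.30.

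Some members have near-identical copies elsewhere in the genome, and their sequences are shown because they limit what the levels can say. Processed pseudogenes, which arise by reverse transcription of an mRNA, hold no introns, and fragments from a shared stretch cannot be assigned with certainty. The coding sequence of Snrpg (gene at chr6:86348286-86356310, plus strand, GRCm39), from its start codon to its stop codon, is identical over 231 of 231 bases to the processed pseudogene Gm8186 (chr17:26317965-26318195, minus strand). The start and stop codons are in capitals.
Snrpg and Gm8186: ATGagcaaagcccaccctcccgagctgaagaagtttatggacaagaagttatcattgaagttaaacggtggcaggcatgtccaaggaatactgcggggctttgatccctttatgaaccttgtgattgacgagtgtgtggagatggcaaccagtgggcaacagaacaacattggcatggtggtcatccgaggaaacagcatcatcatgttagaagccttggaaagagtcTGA
Snrpf (chr10:93418609-93425568, minus strand) differs from its processed pseudogene Gm13092 (chr4:150399634-150399893, minus strand) at 3 of 258 aligned bases. All 3 differences fall in the 60 bases below, where they are in capitals and read C24T, A32G and G36A from Snrpf to the copy, counted from the first base shown.
Snrpf: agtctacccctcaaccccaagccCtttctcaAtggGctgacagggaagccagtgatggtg
Gm13092: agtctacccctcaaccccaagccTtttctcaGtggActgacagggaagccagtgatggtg

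The copies were themselves listed with expression. Gm8186 was at 1049, 1583 and 1056 FPKM in the IVM pools and 1488, 1260 and 1314 FPKM in the IVO pools, below Snrpg in every pool except the first IVO pool. Gm13092 was at 99.3, 308 and 218 FPKM in IVM and 137, 40.3 and 19.1 FPKM in IVO, below Snrpf in every pool. Gm10146, identical to Lsm7 over 309 bases, was at 48.3, 27.8 and 0 FPKM in IVM and 3.04, 1.28 and 0 FPKM in IVO. Gm8186 and Gm13092 are 231 and 260 bases long, about the length of a mean fragment, so their FPKM rests on few possible fragment positions. The levels of Snrpg, Snrpf and Lsm7 are therefore uncertain by an amount the files do not give. Of 102 Ensembl rows outside the name pattern that carry the ortholog name of a member, 80 were at 0 in all pools and 8 had a mean of at least 1 FPKM.

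**Figure D1:**
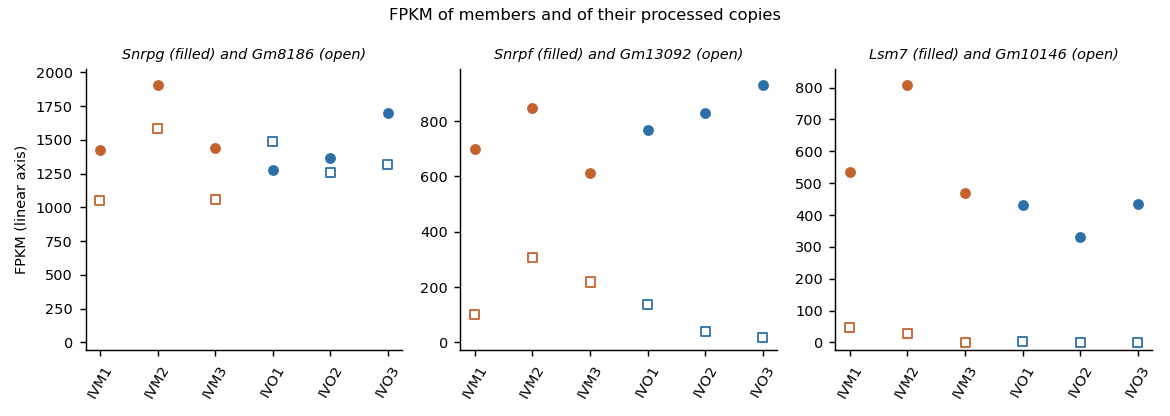
FPKM (linear axis) of Snrpg, Snrpf and Lsm7 (filled circles) and of their processed copies (open squares) in each of the 3 IVM (orange) and 3 IVO (blue) pools. Gm8186 lies at 1049 to 1583 FPKM and Snrpg at 1280 to 1908 FPKM, with the copy above the gene in 1 of 6 pools, whereas Gm13092 and Gm10146 lie below Snrpf and Lsm7 in every pool.

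The 49 tested members covered a wide range of levels. Their median was 34.3 to 51.4 FPKM in the IVM pools and 30.0 to 34.5 FPKM in the IVO pools, against 9.63 to 10.4 and 6.66 to 7.13 FPKM for all tested genes. Snrpe was the highest member in every pool, and Snrpg, Snrpd1, Snrpb2 and Snrpf were each above 600 FPKM in every pool. Lsm5 was also above 600 FPKM in the IVM pools but not in the IVO pools. At the other end, Snrpb, Snrpd2, Lsm11, Snrnp200, Prpf8 and Sf3b3 had group means of at most 5.6 FPKM in both groups.

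Differential expression between IVO and IVM oocytes was then examined. A DEG had |log2FC| of at least 1 on the log2(FPKM + 1) scale and a Benjamini-Hochberg adjusted p-value below 0.05 in limma. Of the 49 tested members, 8 were DEGs and all 8 were lower in IVO: Lsm4, Lsm6, Lsm10, Snrnp25, Snrpd2, Lsm5, Prpf31 and Lsm2. That is 16.3% of the members, and 17.9% of all tested genes were lower DEGs, so in this fit the share was near the background. No member was a higher DEG in limma, against 0.606% of all tested genes. Under quantile normalization the split was 7 lower and 2 higher, and over all tested genes 1580 lower (8.40%) and 1097 higher. Under median-ratio scaling it was 7 lower and 0 higher, and over all tested genes 2130 lower (11.3%) and 385 higher. At an unadjusted p-value below 0.05, 14 members were lower and 1, Lsm14a, was higher, against 31.4% and 5.56% of all tested genes. The 3 IVO values lay below all 3 IVM values for 17 members and above them for 4, that is for 34.7% and 8.16% of the members against 32.6% and 9.62% of all tested genes. The median log2FC of the members was -0.22, and it became 0.08 when the libraries were scaled by median ratio, where that of all genes was -0.04. The log2FC of the DEGs ran from -4.41 to -1.15. The fold threshold by itself places every DEG beyond the shift of all genes. By adjusted p-value alone, 9 members were lower and 0 higher in limma, against 21.5% and 1.87% of all tested genes. This split depended on the scaling. It was 8 lower and 3 higher (Lsm14a, Sf3a1 and Snrnp27) under median-ratio scaling, against 13.2% and 7.14% of all genes, and 7 lower and 12 higher under quantile normalization, against 10.7% and 14.8%.

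**Figure D2:**
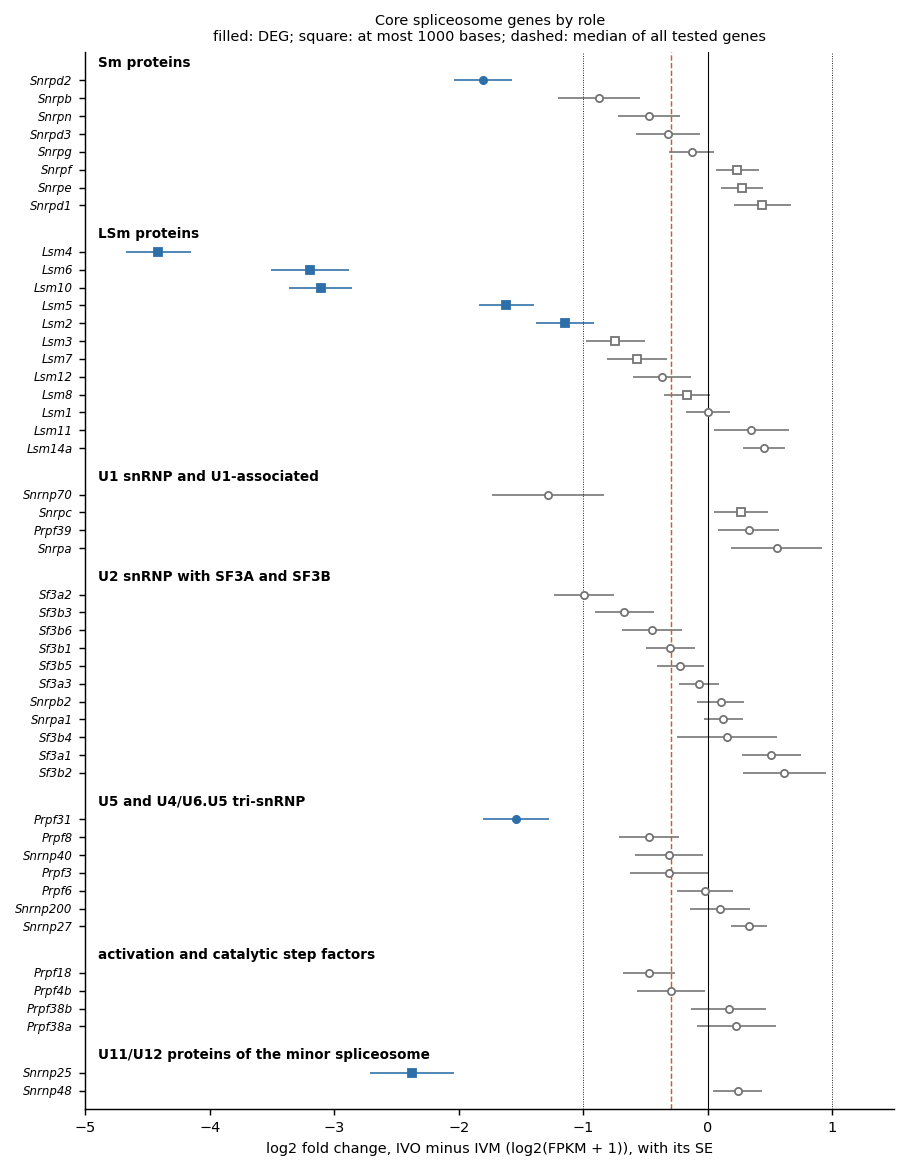
Log2FC (IVO minus IVM, log2(FPKM + 1) scale) with its SE for 48 of the 49 tested members, grouped by role, with squares for genes of at most 1000 bases. Filled blue symbols are the 8 DEGs, and the dashed line at -0.30 is the median of all tested genes. LSm genes hold 5 of the 8 DEGs.

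The Sm genes encode the ring that is closed around the snRNA of U1, U2, U4 and U5. All 8 were tested, and 1 was a lower DEG (12.5%), against 17.9% of all tested genes. It was Snrpd2 (chr7:18880939-18887467, plus strand), which encodes SmD2. Snrpd2 was at 5.81, 5.44 and 5.55 FPKM in IVM and 1.32, 0.71 and 0.70 FPKM in IVO. Every IVO pool was below every IVM pool, with a log2FC of -1.80 (SE 0.23, limma adjusted p = 0.00322). These values correspond to about 115 to 128 fragments per IVM pool and 15 to 28 per IVO pool.

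The other Sm genes did not pass the test, and 4 of them stood among the most abundant members. Snrpe, which encodes SmE, was at 2700, 2868 and 2077 FPKM in IVM and 2884, 2862 and 3440 FPKM in IVO, with overlapping groups (log2FC 0.27, limma adjusted p = 0.286). Snrpd1, which encodes SmD1, had the most positive log2FC of the list at 0.44 (SE 0.23, limma adjusted p = 0.205). Its values were 822, 1312 and 745 FPKM in IVM and 1210, 1311 and 1265 FPKM in IVO, where 1 IVM pool was as high as the IVO pools and the other 2 were below them. Snrpg, which encodes SmG, had the smallest change, with 1421, 1908 and 1441 FPKM in IVM and 1280, 1369 and 1700 FPKM in IVO (log2FC -0.13, SE 0.18). Snrpf and Snrpd3 had log2FC of 0.24 and -0.32. Snrpf overlaps Ccdc38 on the opposite strand over 60.6% of its transcript, and the libraries do not mark strand.

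SmB has 2 genes in this list. Snrpb (chr2:130013547-130021323, minus strand) encodes SmB and SmB′, and its relative Snrpn (chr7:59630427-59820763, minus strand), an imprinted gene best known from neurons, encodes SmN. Snrpb was at 3.56, 1.20 and 1.90 FPKM in IVM and 0.91, 0.67 and 0.48 FPKM in IVO. The groups did not overlap, but the difference did not pass the test (log2FC -0.87, SE 0.33, limma adjusted p = 0.101), and the IVO values rest on about 8 to 15 fragments per pool. Snrpn was at 56.9, 30.4 and 42.3 FPKM in IVM and 30.4, 29.5 and 30.0 FPKM in IVO, with groups that met at 30.4 FPKM (log2FC -0.47, SE 0.25, limma adjusted p = 0.222). Snrpn was therefore the higher of the pair in every pool, by 16.0 to 25.3 times in IVM and 33.4 to 62.5 times in IVO. The annotated transcript read for Snrpn, of 1374 bases against a deposited length of 1932, shares 39.2% with Gm38393 and 15.7% with Snurf on the same strand. Gm38393 was at most 1.54 FPKM and Snurf at most 3.44 FPKM in any pool.

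The levels per length within the Sm ring were far from equal. In IVM the order of mean FPKM was Snrpe, Snrpg, Snrpd1, Snrpf, Snrpd3, Snrpd2 and Snrpb, and it was the same in IVO. The highest mean was 1148 times the lowest in IVM and 4459 times in IVO, with Snrpn left out. Pool by pool, the ratio was 758 to 2390 in IVM and 3169 to 7166 in IVO. The lowest gene, Snrpb, rests on about 8 to 15 fragments per IVO pool, so the IVO ratios are imprecise. Neighbours were not always separate: Snrpd1 and Snrpf overlapped over the IVM pools, as did Snrpg and Snrpd1 over the IVO pools.

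**Figure D3:**
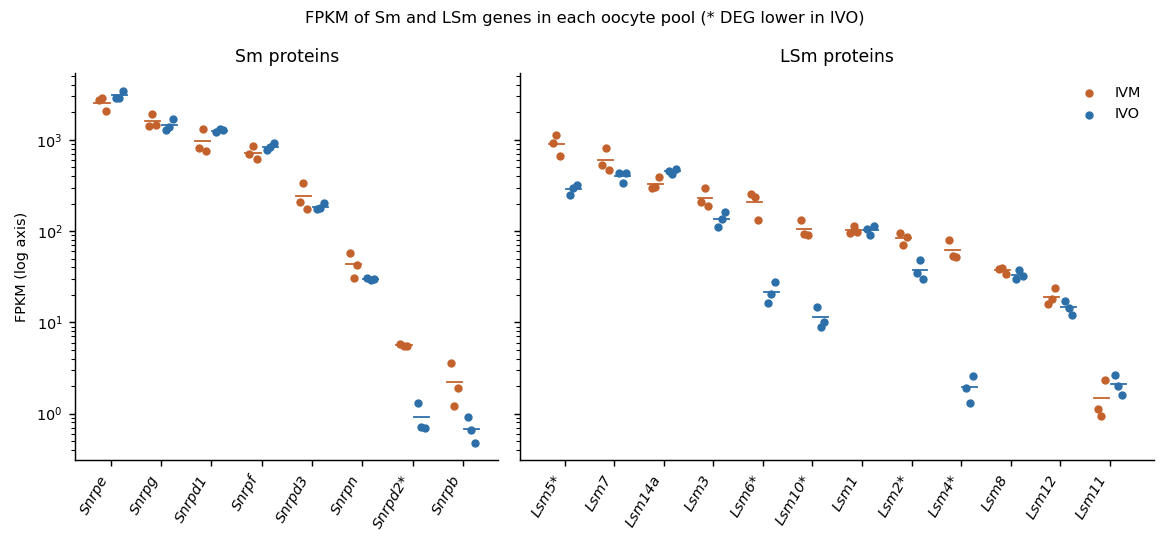
FPKM (log axis) of the 8 Sm and 12 LSm genes in each IVM (orange) and IVO (blue) pool, with the group mean as a line and genes ordered by their IVM mean. Asterisks mark DEGs lower in IVO. Snrpe, Snrpg, Snrpd1 and Snrpf stay above 600 FPKM in all 6 pools, while Lsm4 goes from 52.2 to 79.8 FPKM in IVM to 1.32 to 2.58 FPKM in IVO.

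The LSm list held the largest differences. All 12 genes were tested and 5 were DEGs, Lsm2, Lsm4, Lsm5, Lsm6 and Lsm10, that is 41.7% against 17.9% of all tested genes and 30.8% of the tested protein-coding genes of at most 1000 bases, a length that 8 of the 12 do not exceed. The list had a median log2FC of -0.66 against -0.30 over all tested genes. The median was -0.33 under median-ratio scaling, where it was -0.04 over all genes. Lsm2 to Lsm8 form the ring on the 3′ end of U6, and Lsm1 takes the place of Lsm8 in the cytoplasmic ring that promotes decapping and decay of deadenylated mRNA.

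Lsm4 (chr8:71125849-71135952, plus strand) had the most negative log2FC of all members. It was at 79.8, 53.5 and 52.2 FPKM in IVM and 1.91, 1.32 and 2.58 FPKM in IVO, or 61.8 ± 15.6 and 1.94 ± 0.63 (SD, n = 3), 31.9 times lower. Its log2FC was -4.41 (SE 0.26, limma adjusted p = 0.000614). The 3 IVO pools held about 16 to 31 fragments of Lsm4 and the 3 IVM pools 714 to 929.

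Lsm6 (chr8:79456724-79547869, minus strand) was at 257, 237 and 132 FPKM in IVM and 16.5, 20.4 and 27.4 FPKM in IVO. The lowest IVM pool was still well above the highest IVO pool, with a log2FC of -3.19 (SE 0.31, limma adjusted p = 0.00148). Lsm5 (chr6:56677981-56681738, minus strand), the most abundant gene of the ring in IVM, was at 915, 1123 and 669 FPKM in IVM and 251, 293 and 321 FPKM in IVO (log2FC -1.62, SE 0.22, limma adjusted p = 0.0039). Lsm2 (chr17:35200838-35204868, plus strand) was at 95.7, 69.8 and 86.2 FPKM in IVM and 34.9, 48.2 and 30.1 FPKM in IVO. Its log2FC of -1.15 (SE 0.24, limma adjusted p = 0.0146) was the closest of the 8 DEGs to the fold threshold, and Lsm2 was no longer a DEG under median-ratio scaling (log2FC -0.83) or without the first IVM pool (adjusted p = 0.0533).

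The 3 other genes of the ring on U6 did not pass the test. Lsm3 had a log2FC of -0.74 (limma adjusted p = 0.0624) and Lsm7 of -0.57 (limma adjusted p = 0.132), and in both every IVO pool was below every IVM pool. The annotated transcript read for Lsm7 overlaps Sppl2b on the opposite strand over 32.9% of its 1476 bases. The deposited length of Lsm7 is 468 bases, so the overlap need not hold for the deposited values. Sppl2b was itself a lower DEG (log2FC -1.36). Lsm8, the member that sets the nuclear ring apart, was at 38.9, 39.4 and 33.6 FPKM in IVM and 30.1, 37.0 and 32.3 FPKM in IVO (log2FC -0.17, SE 0.18). Lsm1, its cytoplasmic counterpart, had the smallest change of the list, with 96.0, 114 and 96.9 FPKM in IVM and 105, 90.1 and 113 FPKM in IVO (log2FC 0.01, SE 0.18). Its groups overlapped fully, while 4 of the 6 genes it shares a ring with were lower DEGs.

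The genes of the ring on U6 were ordered differently by level per length in the 2 groups. In IVM the mean levels ran from Lsm5 through Lsm7, Lsm3, Lsm6, Lsm2 and Lsm4 down to Lsm8, and the highest was 24.2 times the lowest. In IVO the order was Lsm7, Lsm5, Lsm3, Lsm2, Lsm8, Lsm6 and Lsm4, and the ratio was 206. Pool by pool, the ratio was 19.9 to 28.5 in IVM and 168 to 252 in IVO, with no overlap. Lsm4 and Lsm6 thus ranked below Lsm8 in IVO and above it in IVM.

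Lsm10 and Lsm11 replace SmD1 and SmD2 in the U7 snRNP, which trims the 3′ ends of histone mRNAs and takes no part in splicing. Lsm10 (chr4:125990358-125995324, plus strand) was at 132, 92.1 and 90.5 FPKM in IVM and 14.7, 8.98 and 10.2 FPKM in IVO, 9.27 times lower (log2FC -3.11, SE 0.26, limma adjusted p = 0.000979). Its partner Lsm11 was at 1.13, 0.95 and 2.32 FPKM in IVM and 2.67, 2.00 and 1.60 FPKM in IVO, with overlapping groups and a log2FC of 0.35 (SE 0.30). The pair therefore had levels of different order in IVM and closer ones in IVO.

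The 2 remaining LSm genes encode larger proteins outside the rings. Lsm14a, whose product acts in translational repression and P-bodies, was at 294, 307 and 393 FPKM in IVM and 460, 417 and 474 FPKM in IVO. Every IVO pool was above every IVM pool, but the difference did not pass the test (log2FC 0.45, SE 0.17, limma adjusted p = 0.101). By adjusted p-value it passed under median-ratio scaling (log2FC 0.77, limma adjusted p = 0.0244) and quantile normalization (log2FC 0.96, limma adjusted p = 0.0172), in both below the fold threshold. Lsm12 had a log2FC of -0.37.

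The U1 list, for recognition of the 5′ splice site, had 5 tested genes of 6 and no DEG in limma. At an unadjusted p-value below 0.05, 1 of the 5 was lower in IVO, against 31.4% of all tested genes. Snrnp70, the U1 70K protein, was at 75.2, 175 and 210 FPKM in IVM and 72.7, 73.1 and 35.3 FPKM in IVO. The lowest IVM pool lay just above the IVO pools and the other 2 far above them, and the log2FC of -1.28 (SE 0.45) passed the fold threshold but not the test (limma adjusted p = 0.0818). Without the first IVM pool it was a DEG (log2FC -1.73, adjusted p = 0.0376). Snrpa, the A protein of U1, had the most positive log2FC of the list at 0.55 (SE 0.37, limma adjusted p = 0.325). It was at 12.3, 4.46 and 12.6 FPKM in IVM and 13.8, 13.4 and 13.7 FPKM in IVO, where 1 IVM pool was low and the other 2 were close to IVO. Without that pool, the second, its log2FC was 0.12 (limma adjusted p = 0.677). Snrpc, the C protein of U1, and Prpf39 had log2FC of 0.27 and 0.33, and Prpf40b was below 1 FPKM in every pool.

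In the U2 list, which holds the branch point complexes SF3A and SF3B, all 11 genes were tested and none was a DEG in limma. At an unadjusted p-value below 0.05, 2 of the 11 were lower in IVO, against 31.4% of all tested genes. Sf3a2, a subunit of SF3A, came closest to being a DEG. It was at 6.17, 5.35 and 5.30 FPKM in IVM and 2.09, 1.81 and 3.19 FPKM in IVO, with no overlap. Its adjusted p-value in limma passed (0.0245) while its log2FC of -0.99 (SE 0.24) stopped just short of the fold threshold, and it was a DEG with a pseudocount of 0.1 (log2FC -1.25), a length trend removed (log2FC -1.17) or without the third IVO pool (log2FC -1.16). Its adjusted p-value in limma did not pass under median-ratio scaling (log2FC -0.74, adjusted p = 0.0701), under quantile normalization (log2FC -0.53, adjusted p = 0.139), or without any 1 of the 5 other pools (adjusted p = 0.0559 to 0.086). Sf3a2 overlaps Plekhj1 on the opposite strand over 31.3% of its transcript, and Plekhj1 had a log2FC of 0.24.

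The subunits of SF3A did not move as a block. Sf3a1 had a log2FC of 0.51 with every IVO pool above every IVM pool (limma adjusted p = 0.169), or 0.81 (limma adjusted p = 0.0448) under median-ratio scaling, and Sf3a3 had the smallest change of the list, at 82.5, 81.4 and 75.8 FPKM in IVM and 70.2, 78.7 and 79.2 FPKM in IVO (log2FC -0.07, SE 0.16). In SF3B, Sf3b2 had the most positive log2FC of all members at 0.62 (SE 0.33, limma adjusted p = 0.229), with 28.9, 13.4 and 31.2 FPKM in IVM and 30.1, 37.7 and 40.6 FPKM in IVO. Its groups overlapped because 1 IVO pool was below the highest IVM pool. Without the second IVM pool, the lowest, its log2FC was 0.25 (limma adjusted p = 0.435), and Snrpd1 was then higher at 0.69 (limma adjusted p = 0.0289). Under quantile normalization, in which the median of all genes was 0.17, Sf3b2 and Sf3a1 were called higher in IVO. Sf3b1, the largest SF3B subunit and the one that grips the branch point, had a log2FC of -0.30 with overlapping groups, and the other SF3B genes lay between -0.67 (Sf3b3) and 0.15 (Sf3b4). Snrpa1 and Snrpb2, the proteins particular to the U2 snRNP beside its Sm ring, had log2FC of 0.13 and 0.10.

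Among the genes of U5 and the tri-snRNP, 7 of 8 were tested and 1 was a lower DEG (14.3%), against 17.9% of all tested genes. Prpf31 (chr7:3632667-3645485, plus strand), which holds U4/U6 and U5 together in the tri-snRNP, was at 35.1, 22.9 and 20.6 FPKM in IVM and 6.89, 7.66 and 10.1 FPKM in IVO. Each IVO pool lay below each IVM pool by at least 10 FPKM (log2FC -1.54, SE 0.26, limma adjusted p = 0.00797). Prpf31 overlaps the long non-coding RNA Gm15927 on the opposite strand over 24.4% of its transcript. Gm15927 was at 1.69, 0.60 and 0.27 FPKM in IVM and at most 0.07 FPKM in IVO.

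The other tri-snRNP genes did not pass the test. Snrnp27, a small protein of the tri-snRNP, had the most positive log2FC of the list, at 515, 613 and 517 FPKM in IVM and 666, 700 and 696 FPKM in IVO. Its groups did not overlap (log2FC 0.33, SE 0.14, limma adjusted p = 0.145). Under median-ratio scaling the log2FC was 0.65 with a limma adjusted p of 0.0369, still below the fold threshold. Prpf6, which bridges U5 and U4/U6, had the smallest change, with 70.1, 105 and 79.8 FPKM in IVM and 68.5, 87.1 and 94.2 FPKM in IVO (log2FC -0.02, SE 0.22). Prpf8, the scaffold of the catalytic centre, and Snrnp200, the helicase that unwinds U4 from U6, were low in all pools, at 1.36 to 3.26 FPKM and 1.44 to 2.23 FPKM, with log2FC of -0.47 and 0.10. Snrnp40 and Prpf3 both had a log2FC of -0.31, and Prpf4 was below 0.5 FPKM in every pool.

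Of the 5 factors of activation and the catalytic steps, 4 were tested. None was a DEG in limma and none had an unadjusted p-value below 0.05. Over all tested genes, 17.9% were lower DEGs and 31.4% were lower at that unadjusted p-value. Prpf18, which acts in the second catalytic step, had the most negative log2FC at -0.47 (SE 0.21, limma adjusted p = 0.153). It was at 5.60, 7.21 and 7.32 FPKM in IVM and 5.05, 4.60 and 3.99 FPKM in IVO, with no overlap. Prpf38a had the most positive log2FC at 0.23 (SE 0.32), with 17.1, 34.3 and 32.2 FPKM in IVM and 38.0, 34.5 and 23.9 FPKM in IVO. Prpf38b had the smallest change, at 11.8, 18.1 and 26.0 FPKM in IVM and 21.6, 22.1 and 16.8 FPKM in IVO (log2FC 0.17, SE 0.30). The groups overlapped for both genes. The kinase Prpf4b had a log2FC of -0.30. Prpf19, the ubiquitin ligase of the complex named after it, was not tested and was at 0.50 to 1.92 FPKM in IVM and 0.53 to 0.94 FPKM in IVO.

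The minor spliceosome list had 2 tested genes of 3, and 1 was a lower DEG, against 17.9% of all tested genes. Snrnp25 (chr11:32155412-32158984, plus strand), a protein of the U11/U12 snRNP, was at 19.9, 11.5 and 7.75 FPKM in IVM and 1.67, 1.76 and 1.22 FPKM in IVO, 8.42 times lower (log2FC -2.38, SE 0.34, limma adjusted p = 0.00439). It overlaps Rhbdf1 on the opposite strand over 34.6% of its transcript, and Rhbdf1 was also a lower DEG (log2FC -1.45, limma adjusted p = 0.0438), so fragments of the shared stretch cannot be told apart. Snrnp48, another U11 protein, was at 32.1, 33.8 and 41.3 FPKM in IVM and 38.1, 40.8 and 48.1 FPKM in IVO, with overlapping groups (log2FC 0.24, SE 0.19). Snrnp35 was at 0.60 FPKM in 1 IVM pool and listed at 0 in the other 5.

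The members were next compared by length, a comparison set together with the choice of members. The inferred mean fragment of the libraries also differed between the groups. Among the 13 tested members of at most 1000 bases, 6 were lower DEGs (46.2%), against 30.8% of the tested protein-coding genes of that length. Among the 36 longer members, 2 were lower DEGs (5.56%), against 12.5% of the longer protein-coding genes. The median log2FC was -0.74 for the short and -0.10 for the long members, a difference of -0.64, and -0.50 and -0.14 for the short and long protein-coding genes. Next to the limit stood Snrpc (882 bases, log2FC 0.27) and Lsm4 (925 bases, -4.41) on the short side, and Snrnp27 (1005 bases, 0.33) and Snrpg (1055 bases, -0.13) on the long side. The classes rest on the deposited lengths, which can differ from annotated ones. The nearest annotated protein-coding transcript lies across the limit for Lsm3 (743 bases deposited, 2077 annotated), Lsm7 (468 and 1476) and Prpf18 (1579 and 553).

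The contrast between short and long members was not the same in all pools of a group. Taken as the median log2 deviation from the IVM mean, short minus long, it was 0.17, 0.23 and -0.46 in the 3 IVM pools and -0.86, -0.63 and -0.34 in the 3 IVO pools. The third IVM pool thus lay among the IVO pools. For all tested protein-coding genes the values were 0.09, 0.08 and -0.18 in IVM and -0.43, -0.44 and -0.32 in IVO, without overlap. The part of fragment length in these differences was not tested. The difference between short and long members was -0.71 when fragment numbers were rebuilt with each library's own fragment length. That rebuilding multiplies FPKM by the length left after the mean fragment, which by itself lowers short genes more in IVO, so it cannot decide the question. With a smooth trend with length removed from each library, the difference was -0.46.

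Short genes of the 2 ring families had log2FC of opposite sign. All 8 short LSm genes had a negative log2FC, from -4.41 to -0.17 with a median of -1.38, and 5 were DEGs. However, Lsm8 turned to 0.15 under median-ratio scaling. It was also positive under FPKM times length, quantile normalization and removal of the length trend. Of the 988 short protein-coding genes, 703 had a negative log2FC and 30.8% were lower DEGs. Protein-coding genes of 400 to 600 bases had a median log2FC of -1.05, and 43.1% were lower DEGs. Lsm5, Lsm6, Lsm7, Lsm8 and Snrpe have listed lengths in that range. The 3 short Sm genes, Snrpe, Snrpf and Snrpd1, had log2FC of 0.24 to 0.44 at similar lengths of 503 to 861 bases, and none was a DEG. These 3 stayed positive and the 7 other short LSm genes stayed negative in all 18 alternative fits. Lsm8 and Snrpe have the same listed length of 503 bases, with log2FC of -0.17 and 0.27. Of the 4 longer LSm genes none was a DEG, and their median log2FC was 0.18. Of the 9356 longer protein-coding genes, 5526 had a negative log2FC and 12.5% were lower DEGs. The 5 longer Sm genes all had a negative log2FC, from -1.80 to -0.13 with a median of -0.47, and 1 was a DEG. They include Snrpg, at 1055 bases just above the length limit, and their median was -0.16 under median-ratio scaling. Over the 49 members, Spearman's rho between length and log2FC was 0.26, a description across genes that share the same 6 libraries, and it was 0.08 over 10344 protein-coding genes.

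**Figure D4:**
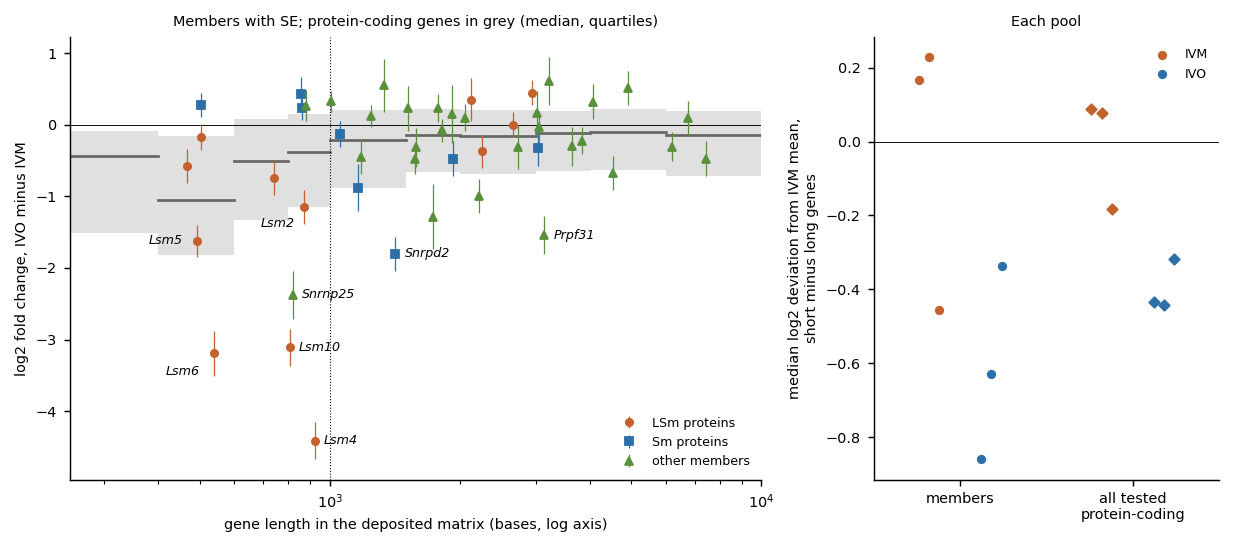
Left, log2FC (IVO minus IVM) with its SE against gene length (log axis) for 48 of the 49 tested members, over the median and quartiles of all tested protein-coding genes in grey, with a dotted line at 1000 bases; the 8 DEGs are named. Right, the median log2 deviation from the IVM mean, short minus long genes, in each IVM (orange) and IVO (blue) pool. The third IVM pool, at -0.46, lies among the IVO pools for the members.

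The neighbours of these genes in the pathway were examined from a list of 49 other spliceosome components, of which 45 were tested. Of these, 7 were DEGs lower in IVO (15.6%) and none was higher in limma, against 17.9% and 0.606% of all tested genes. By adjusted p-value alone, 8 were lower and 3 higher, against 21.5% and 1.87%. At an unadjusted p-value below 0.05, 12 were lower and 6 higher, against 31.4% and 5.56%. Ddx23, the helicase that acts on U1 at the 5′ splice site, was at 78.3, 81.9 and 85.1 FPKM in IVM and 25.9, 33.5 and 32.6 FPKM in IVO (log2FC -1.39, limma adjusted p = 0.00331). Ctnnbl1, a component associated with the Prpf19 complex, was at 319 ± 36.5 FPKM in IVM and 132 ± 13.1 FPKM in IVO (SD, n = 3), with a log2FC of -1.26 (limma adjusted p = 0.00369). In the other direction, Plrg1 and Cwc15, both of the Prpf19-related complex, had log2FC of 0.65 and 0.66 (limma adjusted p = 0.0311 and 0.0395), which passed by adjusted p-value but not by fold. Every IVO pool was above every IVM pool for both. The 7 tested short genes of this list held no DEG, against 30.8% lower DEGs among short protein-coding genes. Its 38 long ones held all 7 (18.4%), against 12.5% among long protein-coding genes, with medians of 0.01 and -0.02.

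A second list held 16 genes of snRNP assembly, in which the SMN complex loads Sm rings onto snRNA. Of 12 tested, 1 was a DEG and it was higher in IVO, against 0.606% higher and 17.9% lower DEGs among all tested genes. Clns1a, which encodes pICln, the chaperone that holds Sm proteins before assembly, was at 8.75, 5.09 and 7.23 FPKM in IVM and 17.97, 18.60 and 13.98 FPKM in IVO (log2FC 1.17, SE 0.25, limma adjusted p = 0.0158). Gemin7, an SMN complex subunit, was at 30.9 ± 9.40 FPKM in IVM and 15.3 ± 1.36 FPKM in IVO (SD, n = 3), with a log2FC of -0.93 (limma adjusted p = 0.0388), below the fold threshold. Gemin8 and Smn1 followed with log2FC of -0.43 (limma adjusted p = 0.14) and 0.30 (limma adjusted p = 0.204). The median log2FC of this list was -0.23.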

How the data were processed

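The authors made SMART-Seq v4 cDNA and Nextera XT libraries, which do not mark strand, filtered the read pairs with SeqPrep and Sickle, and aligned them to GRCm39. HISAT2 2.1.0, RSEM 1.3.3 and DESeq2 1.24.0 are named in the submitters' processing notes. They deposited 1 FPKM value per gene and sample, and counts were not used here. Depth and fragment length were estimated from the spacing of low values in genes of 400 to 1500 bases, of which 77.8% to 80.8% came out as whole fragments; fragment numbers in the text follow from these and cover counting error only.

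The test was limma 3.58.1 in R 4.3.3 (a linear model with the group alone, moderated with trend, two-sided) on log2(FPKM + 1) of the 18818 genes that averaged 1 FPKM or more, which understates the fold change of low genes. P-values were adjusted over all tested genes. The pools were separate samples of separate oocytes per the Methods, so p-values measure the spread between pools.

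The members and lists were chosen with earlier results of these data known. The text gives values in every sample for the member of most negative, most positive and smallest log2FC of each role list, the DEGs (the rule took up to 10 and there were 8), Snrpb and Snrpn. Of the pathway lists it names the 2 genes of lowest adjusted p-value in each direction, with log2FC or values. The values of 1 tested member are not reported here, and it stays in the counts. Overlap with other genes and copies was read from GENCODE vM39 on GRCm39. Shares of a transcript refer to a protein-coding transcript of the length nearest the deposited one. The 2 lengths can differ, so an overlap need not describe the deposited values. The deposited group means were not used. Python 3.11.15, pandas 2.3.3, scipy 1.17.1 and matplotlib 3.10.9 were used for tables and plots.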

Additional observations from a re-analysis of the deposited data

How the results depend on the processing

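The 8 member DEGs lower in IVO numbered 7 to 9 under all 18 alternative fits, and 9 with no fold threshold; 7 of them, Lsm4, Lsm6, Lsm10, Snrnp25, Lsm5, Prpf31 and Snrpd2, stayed DEGs wherever they were tested, Snrpd2 being dropped by the filter at 5 FPKM. Lsm2 was lost in 6 fits. Member DEGs higher in IVO numbered 0 in all fits except quantile normalization, which gave 2. The difference between short and long members stayed negative, from -0.77 to -0.40. The replicate numbers did not pair the samples (correlations of same-numbered deviations -0.06, -0.02 and -0.11); with the number as a replicate block there were 8 lower and 0 higher DEGs among the members, 2899 lower instead of 3366 over all genes, and a difference of short and long of -0.64. Over all genes, DEGs numbered 3366 lower and 114 higher as reported, 2130 and 385 under median-ratio scaling, and 1580 and 1097 under quantile normalization. The rebuilding of fragment numbers was added after the data were seen.

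Members with small changes turned direction, none of them a DEG. Under median-ratio scaling, FPKM times length and rebuilt fragment numbers, the log2FC was 0.29, 0.30 and 0.35 for Prpf6, 0.25, 0.25 and 0.28 for Sf3a3, and 0.19, 0.19 and 0.19 for Snrpg. Under quantile normalization it was 0.49 for Prpf6, 0.45 for Sf3a3, 0.27 for Snrpg and 0.018 for Prpf18. With the length trend removed it was -0.028 for Prpf38b and -0.18 for Lsm1, with and without the replicate block. Leaving out 1 pool gave -0.067 to 0.096 for Lsm1, -0.15 to 0.14 for Prpf6, -0.25 to 0.0078 for Snrpg, -0.11 to 0.43 for Prpf38b and -0.075 to 0.42 for Prpf38a. The cause was not tested.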
